A study of Saccharomyces cerevisiae with 12 samples.

Results

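The genes described here are 43 ribosome biogenesis genes of *Saccharomyces cerevisiae*. They comprise 41 rRNA processing and ribosome assembly factors and 2 regulators, *TOD6* and *SFP1*. They were listed by name, out of 5656 genes with a probe set of their own. The platform annotation gave each gene at least 1 probe set, and where it gave several (*NOP58*, *DBP2* and *NOG2*) the probe set with the highest mean over all 12 arrays stood for the gene. That mean was the only measured value the selection used, and it says nothing about the strains. However, the genes were listed when results on these arrays were already known, the calls of *NOG2* and *TOD6* among them. No gene was removed by a filter on low values. A level below is a log2 value after robust multichip averaging (RMA), and a difference is between 2 strain means on that scale.

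Ribosome synthesis begins in the nucleolus, where RNA polymerase I transcribes a long precursor rRNA. Small nucleolar ribonucleoprotein particles (snoRNPs) modify the precursor, the small-subunit processome and RNA helicases cleave and fold it, and GTPases and export adaptors bring the pre-ribosomal particles to the cytoplasm. In yeast these genes form a regulon that is known to follow growth rate through the TOR and protein kinase A pathways and to be repressed in the environmental stress response.

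Transcripts were measured on Affymetrix yeast S98 arrays in untreated logarithmic cultures in rich medium (YPD), with 3 biological repeats for each of 4 strains. The wildtype (Y10000) and the single mutants *rad4Δ* (Y16158) and *rad23Δ* (Y10278) were Euroscarf strains of the BY4742 background and the alpha mating type. The *rad4Δrad23Δ* double mutant was made from the *rad23Δ* strain by exchanging *RAD4* for a *HIS3* marker, and no sample was irradiated. It differs from *rad23Δ* by that marker as well as by *RAD4*. The study names the marker for no other of these strains. In every comparison of the double mutant, and in the interaction below, the marker and the deletions therefore cannot be told apart. Rad4 and Rad23 are the complex that recognizes damaged DNA in nucleotide excision repair, and the study asked how its absence alters transcription.

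The deleted genes were read as a check of the labels. Where *RAD23* is present by label its level was 9.32 to 9.82, and where it is deleted 3.66 to 4.88. The *RAD4* level was 5.11, 5.12 and 3.42 on wildtype arrays 1, 2 and 3, and 3.49, 5.47 and 3.01 on *rad4Δ* arrays 1, 2 and 3. In *rad23Δ* it ranged from 5.12 to 5.44, and in the double mutant from 2.70 to 2.99. The arrays labelled wildtype 3 and *rad4Δ* 2 therefore went against their labels. Medians, calls and most counts of members in each comparison, and the adjusted p of the members described most closely, are given with and without both. Counts that span all strains, counts by role and the medians of other gene lists are given with all arrays only. Counts at an unadjusted p are given with all arrays only, because their share over all probe sets was not counted without both. Without both, *NOG2* and *TOD6* were still the only members called in any comparison. The difference of the double mutant from wildtype changed sign for *NOP56* (-0.01), *RRP12* (0.05) and *RPF1* (0.02), that from *rad4Δ* for *NOP56* (-0.12) and *BRX1* (-0.17), that of *rad4Δ* from wildtype for 7 members and that of *rad23Δ* from wildtype for 3. All 4 genes of the alpha mating type (*MFALPHA1*, *MFALPHA2*, *STE3* and *SAG1*) lay between 9.20 and 12.21 on every array, and the 6 genes of the opposite type lay between 2.99 and 6.35. RNA came from whole cultures and the arrays were scaled to each other, so fewer cells that transcribe a gene and less of its RNA per cell cannot be told apart.

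The members were, as a set, lowest in the double mutant. To set genes of unequal level side by side, each member was expressed as its deviation from its own mean over 12 arrays, and the median of the 43 deviations was taken on each array. This median was -0.21, -0.16 and -0.20 on double mutant arrays 1, 2 and 3. It was -0.03, -0.01 and 0.03 on the wildtype arrays, -0.01, 0.01 and 0.20 on the *rad4Δ* arrays and 0.01, 0.20 and 0.19 on the *rad23Δ* arrays. All double mutant arrays thus lay below the other 9, while *rad4Δ* 3, *rad23Δ* 2 and *rad23Δ* 3 stood above the remaining 6. On the double mutant arrays 1, 5 and 2 of the 43 members were above their own mean, against 15 to 26 on the wildtype, 21 to 31 on the *rad4Δ* and 23 to 41 on the *rad23Δ* arrays. The double mutant had the lowest strain mean for 38 members, wildtype for 3 and *rad4Δ* for 2. The highest mean was in *rad23Δ* for 29 members, in *rad4Δ* for 9 and in wildtype for 5.

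**Figure D1:**
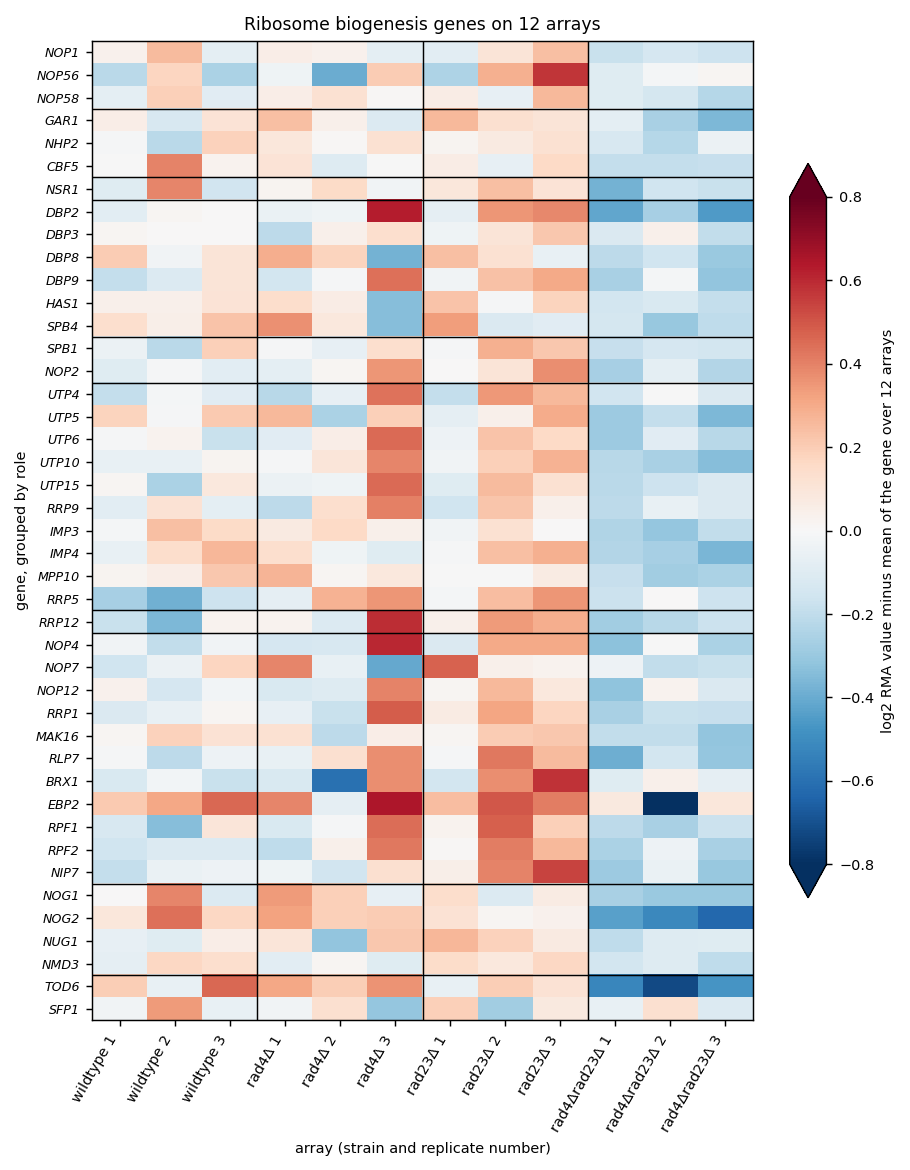
Heat map of the log2 deviation of each of the 43 ribosome biogenesis genes (rows, grouped by role) from its own mean over 12 arrays, on every array (columns, grouped by strain), with red above and blue below the mean. The double mutant columns are mostly blue, with medians of -0.21, -0.16 and -0.20, and *rad4Δ* 3, *rad23Δ* 2 and *rad23Δ* 3 are mostly red.

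Only 2 members passed the test, and both did so in each comparison of the double mutant. Nog2 is a GTPase that is needed for late assembly and nuclear exit of the large subunit. The *NOG2* (YNR053C) level was 9.38, 9.73 and 9.45 in wildtype, 9.61, 9.48 and 9.49 in *rad4Δ*, 9.40, 9.30 and 9.32 in *rad23Δ*, and 8.85, 8.77 and 8.66 in the double mutant. Every double mutant array was below every other array. *NOG2* fell by 0.76 against wildtype (1.69-fold, SE 0.11, 95% interval -0.99 to -0.53, adjusted p = 0.00657 by limma with Benjamini-Hochberg adjustment over all probe sets). Against *rad23Δ* the difference was -0.58 (1.49-fold, SE 0.11, limma adjusted p = 0.0301). Against *rad4Δ* it was -0.77 (1.70-fold, SE 0.11, limma adjusted p = 0.00559). Without the pair of doubted arrays the limma adjusted p was 0.0205, 0.0376 and 0.0174 in the same order. The wildtype call missed the threshold without double mutant array 3 (limma adjusted p = 0.0599). The *rad23Δ* call missed it without any 1 of the 6 *rad23Δ* and double mutant arrays. Its limma adjusted p was 0.0747, 0.116 and 0.133 without *rad23Δ* 1, 2 and 3. It was 0.101, 0.130 and 0.184 without double mutant 1, 2 and 3.

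A dimmer *NOG2* probe set also had its lowest values in the double mutant, at 7.35, 7.15 and 7.19. It read 7.99, 8.23 and 8.09 in wildtype, 8.07, 7.83 and 7.30 in *rad4Δ*, and 7.96, 7.66 and 7.86 in *rad23Δ*. The double mutant did not overlap wildtype or *rad23Δ*, but *rad4Δ* array 3 was within its range. The second probe set passed against wildtype (difference -0.87, limma adjusted p = 0.0414) and not against *rad23Δ* (-0.60, 0.152) or *rad4Δ* (-0.50, 0.262).

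Tod6 is a Myb-type protein that binds promoters of ribosome biogenesis genes and represses them when TOR or protein kinase A activity is low. The *TOD6* (YBL054W) level was 7.05, 6.79 and 7.31 in wildtype, 7.16, 7.05 and 7.21 in *rad4Δ*, 6.79, 7.05 and 6.97 in *rad23Δ*, and 6.33, 6.13 and 6.38 in the double mutant. All 3 double mutant arrays were below the other 9, and the other strains overlapped. *TOD6* fell by 0.77 against wildtype (1.71-fold, SE 0.13, 95% interval -1.06 to -0.48, limma adjusted p = 0.0216). The difference was -0.66 from *rad23Δ* (1.58-fold, limma adjusted p = 0.0447) and -0.86 from *rad4Δ* (1.82-fold, limma adjusted p = 0.0104). Thus the called member that encodes a repressor of ribosome biogenesis genes was lower in the strain in which the median of those genes was also lowest.

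The *TOD6* calls depended on single arrays more than those of *NOG2*. Against wildtype the call was lost without wildtype 1 (limma adjusted p = 0.0867), wildtype 3 (0.0803) or double mutant 1, 2 or 3 (0.0885, 0.134 and 0.0869), and without both doubted arrays (difference -0.64, 0.071). Against *rad23Δ* the limma adjusted p was above 0.05 without 9 of the 12 arrays taken singly, namely wildtype 1 (0.0797), *rad4Δ* 1 and 2 (0.0572 and 0.061), *rad23Δ* 1, 2 and 3 (0.0548, 0.174 and 0.191) and double mutant 1, 2 and 3 (0.143, 0.210 and 0.167), although it was 0.0284 without both doubted arrays. Against *rad4Δ* it was lost without double mutant 1 or 2 (0.0512 and 0.0706), and was 0.0089 without the doubted arrays.

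Sfp1, the other regulator, activates transcription of ribosome biogenesis and ribosomal protein genes. The *SFP1* level was 6.13, 6.50 and 6.10 in wildtype, 6.13, 6.29 and 5.85 in *rad4Δ*, 6.35, 5.88 and 6.24 in *rad23Δ*, and 6.10, 6.29 and 6.05 in the double mutant. The 4 strains overlapped throughout. Its difference in the double mutant was -0.10 from wildtype (95% interval -0.44 to 0.25), -0.01 from *rad23Δ* (-0.36 to 0.34) and 0.06 from *rad4Δ* (-0.29 to 0.40).

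**Figure D2:**
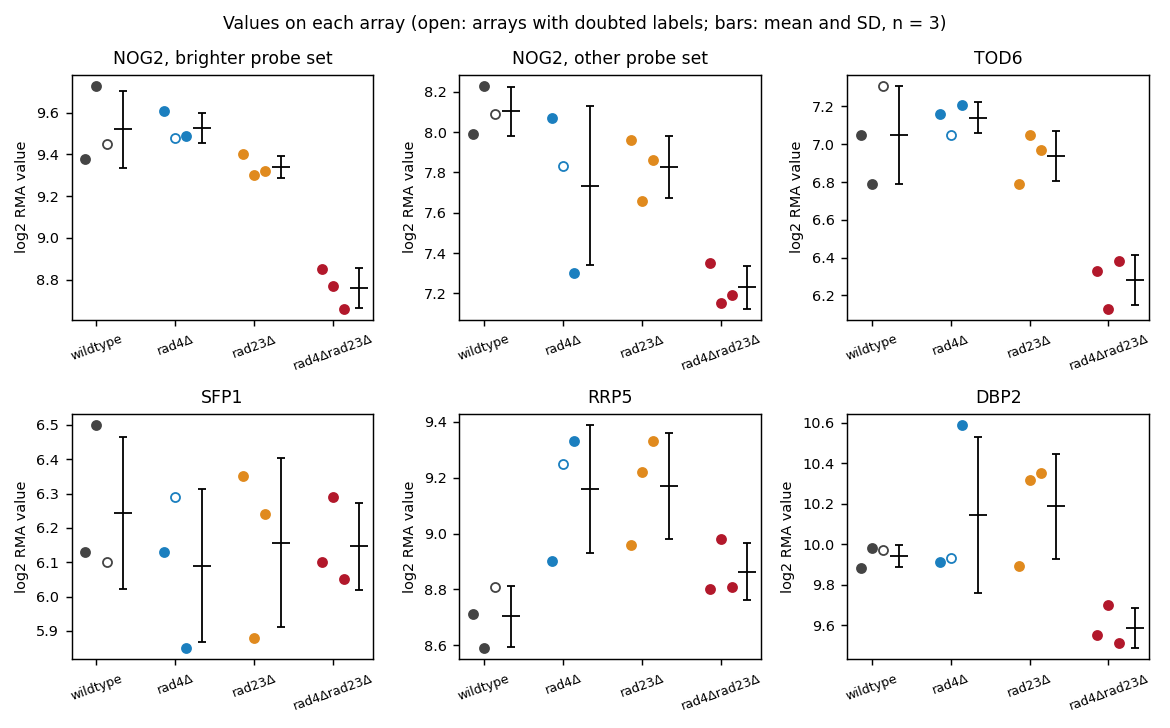
Log2 RMA level (vertical axis) of both *NOG2* probe sets, *TOD6*, *SFP1*, *RRP5* and *DBP2* on each array, by strain (horizontal axis), where points are arrays (open for the 2 arrays with doubted labels) and bars are the mean and SD of 3 arrays. *NOG2* at 8.66 to 8.85 and *TOD6* at 6.13 to 6.38 were below all other arrays in the double mutant, *SFP1* overlapped in all strains, and *RRP5* was above wildtype in both single mutants.

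The first comparison asked which transcripts differ between the double mutant and wildtype. Of the 43 members, 39 had a difference below 0, as did 55.1% of all probe sets, and the median was -0.15 against -0.02 over all probe sets. *NOG2* and *TOD6* were the only members called, lower in both cases, where 0.259% of all probe sets were called lower. At an unadjusted p under 0.05, 10 members were lower and none higher, against 5.56% of all probe sets lower and 5.52% higher. In 20 members (46.5%) all double mutant arrays were below all wildtype arrays, against 13.3% of all probe sets, and none lay wholly above, against 11.6%. Without the doubted arrays 38 members were below 0, 21 lay wholly below wildtype, against 18.9% of probe sets over the same arrays, and only *NOG2* was called, against 0.302% of probe sets.

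The second comparison asked what loss of *RAD4* changes in cells already lacking *RAD23*, and it gave the widest separation. All 43 members had a difference below 0, as did 53.1% of all probe sets, and the median was -0.32 against -0.01. The 2 calls compare with 0.302% of probe sets called lower, and 27 members were lower at an unadjusted p under 0.05, against 4.59%. In 33 members (76.7%) the double mutant arrays lay below all *rad23Δ* arrays, against 9.93% of probe sets. This comparison contains neither doubted array in its means, and without them in the fit 2 members were called, against 0.539% of probe sets called lower. The median was -0.41 without *rad23Δ* array 1, on which most members were lowest in that strain.

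The third comparison asked what loss of *RAD23* changes in cells lacking *RAD4*. Here 40 members had a difference below 0, against 53.7% of probe sets, with a median of -0.29 against -0.02. The same 2 genes were called, where 0.302% of probe sets were called lower, and 15 members were lower at an unadjusted p under 0.05, against 4.92%. The strains did not overlap for 19 members (44.2%), all lower in the double mutant, against 9.46% of probe sets. Without the doubted arrays 42 members were below 0 and 2 were called, against 0.42% of probe sets called lower. The strains then did not overlap for 25 members, against 14.7% of probe sets over the same arrays. The median was -0.19 without *rad4Δ* array 3, on which the members were highest. The 3 comparisons share the double mutant arrays, so the repeated calls of *NOG2* and *TOD6* are not independent of each other.

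In 13 members every double mutant array was below every array of the other strains, which held for 2.23% of all probe sets. These were *NOP1*, *NOP58*, *CBF5*, *NSR1*, *DBP2*, *UTP10*, *IMP3*, *IMP4*, *MPP10*, *NOG1*, *NOG2*, *NMD3* and *TOD6*. The SE of a member's difference had a median of 0.14. No member whose difference was smaller than 0.58 in size was called. The counts of calls also depended on how arrays were weighted: with array weights estimated gene by gene, 11, 30 and 6 members were called lower than in wildtype, *rad23Δ* and *rad4Δ*, against 4.75%, 4.42% and 1.71% of all probe sets.

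**Figure D3:**
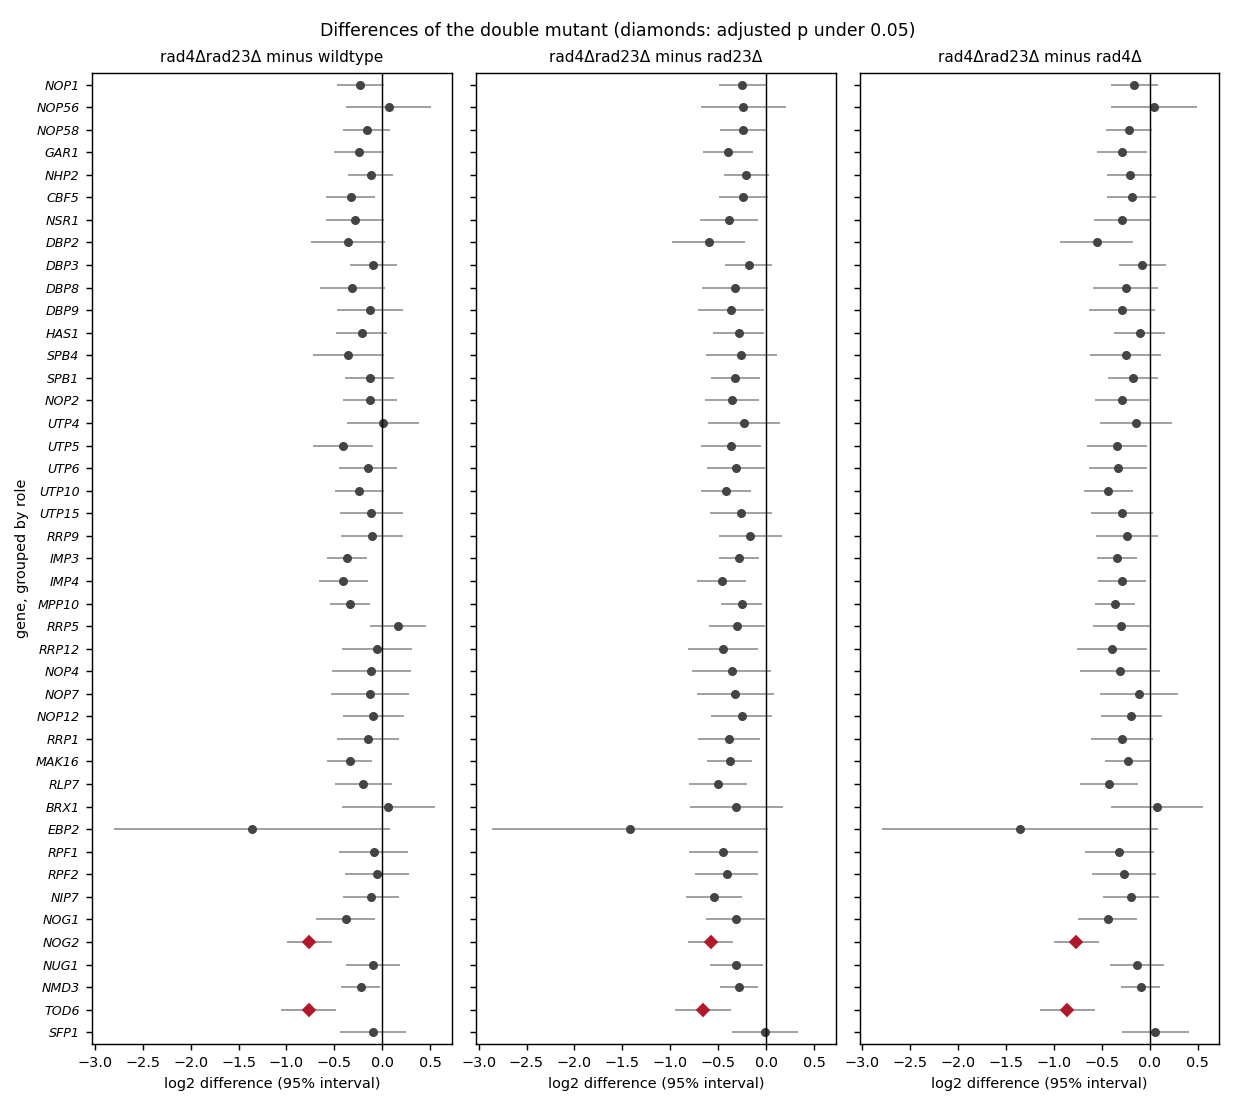
Log2 difference of the double mutant from wildtype, *rad23Δ* and *rad4Δ* (horizontal axis) for each of the 43 members (vertical axis, grouped by role), with 95% limma intervals. Nearly all points lie below 0, with medians of -0.15, -0.32 and -0.29, and *NOG2* and *TOD6* were the members called.

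Among the snoRNP proteins, Nop1 (the yeast fibrillarin), Nop56 and Nop58 form the core of the box C/D particles that guide rRNA methylation. The *NOP1* level was 9.16, 9.20 and 9.17 in the double mutant, against 9.26 to 9.59 in wildtype, 9.26 to 9.39 in *rad4Δ* and 9.25 to 9.58 in *rad23Δ*, and did not overlap any of them. *NOP58* (mean over 12 arrays 11.52) was read at 11.42, 11.38 and 11.29 in the double mutant, and at 11.43 to 11.78 on the others. Its 3 other probe sets did not all follow, with differences from wildtype of -0.24, 0.07 and 0.29, the last on a probe set of low signal. *NOP56* differed by 0.07 from wildtype, -0.24 from *rad23Δ* and 0.04 from *rad4Δ*, and the strains overlapped. Cbf5, Gar1 and Nhp2 belong to the box H/ACA particles, in which Cbf5 is the pseudouridine synthase. *CBF5* was 9.46, 9.46 and 9.47 in the double mutant and between 9.55 and 10.05 elsewhere. *GAR1* and *NHP2* (mean 10.93) differed by -0.24 and -0.12 from wildtype, by -0.40 and -0.21 from *rad23Δ*, and by -0.29 and -0.21 from *rad4Δ*. *NSR1*, which encodes a nucleolin-like protein, was 9.06, 9.28 and 9.26 in the double mutant, just below the lowest wildtype array at 9.29. None of these 7 genes passed the test in any comparison.

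All 6 RNA helicase genes had differences below 0 in each comparison of the double mutant, and none was called. Dbp2, a DEAD-box helicase that acts in rRNA processing and on mRNA, had the largest. The *DBP2* level (mean over 12 arrays 9.97) was 9.88, 9.98 and 9.97 in wildtype, 9.91, 9.93 and 10.59 in *rad4Δ*, 9.89, 10.32 and 10.35 in *rad23Δ*, and 9.55, 9.70 and 9.51 in the double mutant. The double mutant arrays were below the other 9, and the high single mutant values came from *rad4Δ* 3, *rad23Δ* 2 and *rad23Δ* 3. The difference was -0.36 from wildtype (limma adjusted p = 0.473), -0.60 from *rad23Δ* (SE 0.18, 0.177) and -0.56 from *rad4Δ* (0.233). These were -0.34 (limma adjusted p = 0.638), -0.60 (0.195) and -0.66 (0.202) without the doubted arrays. Without *rad4Δ* array 3 in the fit the *rad23Δ* comparison passed for *DBP2* (limma adjusted p = 0.0458). On a dimmer *DBP2* probe set the double mutant read 8.06, 8.06 and 7.86 and the other arrays 8.26 to 8.98, again without overlap. The single mutants were not above wildtype there. *rad4Δ* and *rad23Δ* differed from wildtype by -0.14 and 0, against 0.20 and 0.24 on the brighter probe set.

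The other helicases were less set apart. *SPB4* and *HAS1*, for large-subunit assembly and for both subunits, differed from wildtype by -0.35 and -0.22, and *DBP8*, for small-subunit rRNA, by -0.31. *DBP3* and *DBP9*, which act on the large-subunit path, differed by -0.10 and -0.13 from wildtype and by -0.18 and -0.37 from *rad23Δ*. Of the rRNA methyltransferase genes, *SPB1* and *NOP2* (mean 8.74) differed by -0.13 and -0.13 from wildtype and by -0.32 and -0.35 from *rad23Δ*.

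The small-subunit processome is the large particle that assembles on the precursor rRNA around the U3 snoRNP. Its 10 members had differences from -0.41 to 0.16 against wildtype, 8 of them below 0, and all 10 were below 0 against each single mutant. Imp3, Imp4 and Mpp10 form a complex with U3. The *IMP4* level was 7.09, 7.29 and 7.41 in wildtype, 7.28, 7.11 and 7.05 in *rad4Δ*, 7.14, 7.39 and 7.43 in *rad23Δ*, and 6.91, 6.88 and 6.78 in the double mutant. *IMP3* was 7.77, 7.70 and 7.81 in the double mutant and 7.98 to 8.25 elsewhere, and *MPP10* was 6.73, 6.64 and 6.66 against 6.91 to 7.19. All 3 genes of this complex were thus below the other 9 arrays, with differences from wildtype of -0.41, -0.37 and -0.34 that missed the threshold (limma adjusted p = 0.194, 0.137 and 0.198). They were -0.33, -0.36 and -0.28 without the doubted arrays (limma adjusted p = 0.452, 0.285 and 0.406).

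Of the transcription-linked processome proteins Utp4, Utp5, Utp10 and Utp15, only *UTP10* had all double mutant arrays below the other 9. Its wildtype values were 8.51, 8.51 and 8.59 and its double mutant values 8.35, 8.31 and 8.23, with up to 8.96 in *rad4Δ* and 8.85 in *rad23Δ*, and it differed from wildtype by -0.24. The larger difference was that of *UTP5*, at -0.41 (limma adjusted p = 0.316, and 0.402 without the doubted arrays), where double mutant array 2 was above *rad4Δ* array 2. *UTP15* differed from wildtype by -0.11, whereas *UTP4* was within 0.01 of wildtype and -0.23 from *rad23Δ*. *UTP6* and the U3 protein gene *RRP9* differed from wildtype by -0.15 and -0.11.

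*RRP5*, whose product is needed for both subunits, had the highest double mutant difference from wildtype among the 43. Its level (mean over 12 arrays 8.97) was 8.71, 8.59 and 8.81 in wildtype, 8.90, 9.25 and 9.33 in *rad4Δ*, 8.96, 9.22 and 9.33 in *rad23Δ*, and 8.80, 8.98 and 8.81 in the double mutant. Both single mutants were above all wildtype arrays, and the double mutant overlapped wildtype. The difference in the double mutant was 0.16 from wildtype (95% interval -0.13 to 0.45) and -0.31 from *rad23Δ* (limma adjusted p = 0.454). Rrp12 is a factor for maturation and export of both subunits. *RRP12* (mean 9.15) was 8.97, 8.79 and 9.18 in wildtype, 9.18, 9.04 and 9.74 in *rad4Δ*, 9.19, 9.49 and 9.44 in *rad23Δ*, and 8.87, 8.93 and 8.98 in the double mutant. Here only *rad23Δ* was above all wildtype arrays, *rad4Δ* overlapped wildtype, and the double mutant, which also overlapped it, had the lowest mean.

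The 11 large-subunit assembly factors were all below 0 against *rad23Δ* (range -1.42 to -0.26), and 10 of them were below 0 against wildtype. *NIP7* had the smallest p among them. The *NIP7* level was 6.93, 7.17 and 6.92 in the double mutant, 7.27, 7.62 and 7.76 in *rad23Δ*, 7.03, 7.17 and 7.18 in wildtype, and 7.19, 7.07 and 7.35 in *rad4Δ*. The double mutant overlapped wildtype and *rad4Δ* but not *rad23Δ* (difference -0.54, SE 0.13, limma adjusted p = 0.105). Without *rad23Δ* array 1 the *NIP7* difference was -0.68 and passed (0.0394). *RLP7*, which encodes a relative of a large-subunit ribosomal protein, differed from *rad23Δ* by -0.50 and from wildtype by -0.20. *MAK16* differed from wildtype by -0.34 and from *rad23Δ* by -0.38. *RPF1* and *RPF2* (mean 10.10) differed from *rad23Δ* by -0.45 and -0.41, but from wildtype only by -0.09 and -0.06. *NOP4*, *NOP7*, *NOP12* and *RRP1* had differences from -0.15 to -0.10 against wildtype and from -0.39 to -0.26 against *rad23Δ*. *BRX1* differed from wildtype by 0.06 and from *rad4Δ* by 0.07.

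*EBP2*, for another large-subunit factor, had the largest measured difference of all members, and 1 array made it. Its level was 8.23, 8.33 and 8.48 in wildtype, 8.41, 7.95 and 8.67 in *rad4Δ*, 8.27, 8.52 and 8.43 in *rad23Δ*, and 8.10, 4.76 and 8.11 in the double mutant. The value 4.76 on double mutant array 2 was far below the other 11. The difference from wildtype was -1.36 with all values (SE 0.66, limma adjusted p = 0.473) and -0.24 without that value (0.656), an alternative chosen after the data were seen. From *rad23Δ* it was -1.42 with and -0.30 without the value.

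The remaining large-subunit genes encode the GTPases Nog1, Nog2 and Nug1 and the export adaptor Nmd3. Besides *NOG2* (mean 9.29), *NOG1* was 7.82, 7.78 and 7.78 in the double mutant and 7.97 to 8.47 elsewhere, with differences of -0.38 from wildtype, -0.32 from *rad23Δ* and -0.44 from *rad4Δ* (limma adjusted p = 0.336, 0.471 and 0.240, and 0.331, 0.451 and 0.313 without the doubted arrays). *NMD3* was 9.13, 9.17 and 9.07 in the double mutant and 9.18 to 9.44 elsewhere. *NUG1* differed by -0.10 from wildtype and by -0.31 from *rad23Δ*.

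In the single mutants no member passed the test. For *rad4Δ* against wildtype 15 members were below 0, 27 above and *NSR1* at 0, where 50.4% of probe sets were below 0, and the median was 0.05. By limma 0.0% of probe sets were called in either direction. With the doubted arrays left out 0.162% were called lower and 0.27% higher, with no member among them. Only *RRP5* reached an unadjusted p under 0.05, against 1.43% of probe sets that were higher at that level, and only *RRP5* had all *rad4Δ* arrays above wildtype, where 2.53% of probe sets did. Its difference was 0.46 (SE 0.13, limma adjusted p = 0.906), followed by *RRP12* at 0.34 and *RLP7* at 0.23. The lowest were *SFP1*, *CBF5* and *NMD3*, at -0.15, -0.14 and -0.13. Without the doubted arrays 15 members were below 0 and the median was 0.17. *RRP12*, *RRP5* and *SFP1* then differed by 0.58, 0.47 and -0.33. In 12 of the 43 members both remaining *rad4Δ* arrays were then above both wildtype arrays, against 14.2% of probe sets. In 1 member both were below, against 13.5%. The members whose difference changed sign were *NOP58*, *UTP5*, *NOP7*, *BRX1*, *EBP2*, *NOG1* and *NOG2*.

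For *rad23Δ* against wildtype 34 members were above 0 and 9 below, where 52.9% of probe sets were below, with a median of 0.15 against -0.01 over all probe sets (0.17 without the doubted arrays). By limma none was called, where 0.14% of probe sets were called higher and 0.14% lower. *RRP5*, *NIP7*, *RRP12*, *RPF2* and *RLP7* were higher at an unadjusted p under 0.05 (5 of 43, against 3.06% of probe sets). In 7 members (*NOP2*, *RRP5*, *RRP12*, *RRP1*, *RPF2*, *NIP7* and *NUG1*, 16.3%) all *rad23Δ* arrays were above wildtype, against 5.0% of probe sets. The largest differences were *RRP5* at 0.47 (limma adjusted p = 0.323), *NIP7* at 0.42 (0.431) and *RRP12* at 0.39 (0.655), and the lowest were *NOG2* at -0.18 and *TOD6* at -0.11. Without the doubted arrays 8 members were below 0. In 14 members all *rad23Δ* arrays were above both remaining wildtype arrays, against 9.82% of probe sets over the same arrays. The differences of *NOP1*, *UTP5* and *TOD6* (0.02) then changed sign. With array weights estimated gene by gene, 12 members were called higher in this comparison, against 3.77% of probe sets.

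The interaction asked whether deleting *RAD4* changes a transcript by the same amount with and without *RAD23*. It was below 0 for 42 of the 43 members, against 51.0% of probe sets, with a median of -0.36 and a median SE of 0.20. The exception was *SFP1* at 0.14. No member was called by limma, where 0.0323% of probe sets were called below 0, and 15 had an unadjusted p under 0.05, against 3.77%. The largest after *EBP2* were *DBP2* at -0.80 (SE 0.25, limma adjusted p = 0.340), *RRP12* at -0.79 (0.319) and *RRP5* at -0.76 (0.213). On the dimmer *DBP2* probe set it was -0.48 (limma adjusted p = 0.578). Without the doubted arrays the median was -0.49 and *TOD6* alone passed, against 0.474% of probe sets called below 0. Its interaction was then -0.92 (limma adjusted p = 0.0467), against -0.75 (0.223) with all arrays. With array weights estimated gene by gene 13 members were called below 0, against 1.47% of probe sets.

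Within a strain, some arrays held many of the members' extremes. On *rad23Δ* array 1, 31 of the 43 were at their lowest of that strain, and on *rad4Δ* array 3, 25 were at their highest. However, 13 members were lowest of that strain on *rad4Δ* array 3, among them *DBP8*, *HAS1*, *SPB4* and *NOP7* (7.71, 7.58, 7.98 and 6.54). Wildtype array 2 held the highest value of its strain for 18 members and the lowest for 16. The median SD of a member was 0.229 in *rad4Δ*, 0.159 in *rad23Δ*, 0.119 in wildtype and 0.0777 in the double mutant, where over all probe sets it was 0.186, 0.151, 0.147 and 0.0889.

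Of 3 sets of control probe sets, 1 was highest on the same arrays. The 3′ minus 5′ log2 value of the YER022w controls was 2.44 on *rad4Δ* 3, 2.12 on *rad23Δ* 2, 2.15 on *rad23Δ* 3 and 2.11 on double mutant 2, and lay between 1.60 and 1.90 on the other 8 arrays. The same quantity for *ACT1* was 0.89 on *rad4Δ* 3 and between 0.30 and 0.76 elsewhere, with 0.60 on *rad23Δ* 3. For YER148w it was 1.98 on *rad4Δ* 3, 1.71 on *rad23Δ* 2 and 1.49 on *rad23Δ* 3. On double mutant arrays 1, 2 and 3 it was 1.67, 1.79 and 1.79, and elsewhere 1.17 to 1.72. The YER148w median was highest in the double mutant, at 1.79, against 1.42 in wildtype, 1.68 in *rad4Δ* and 1.49 in *rad23Δ*. *ACT1* and YER148w were thus highest on *rad4Δ* 3 but did not set both *rad23Δ* arrays apart. The 3 arrays with the highest YER022w value were those on which the members were highest. The part of the control values in the members' values was not tested in any strain. Between double mutant 2 and *rad23Δ* 2, with almost equal control values of 2.11 and 2.12, 42 of the 43 members were lower in the double mutant, against 45.5% of probe sets, with a median difference of -0.31. Between double mutant 1 (1.90) and wildtype 2 (1.88) 35 members were lower, against 48.2%, with a median of -0.20. Each double mutant array was set beside the nearest array of each other strain. The fewest members, 29, were lower between double mutant 2 and wildtype 2 (47% of probe sets, median -0.15). Between double mutant 2 and the doubted array *rad4Δ* 2 (1.88) 31 were lower (51.9%, median -0.14). Wildtype 2 had the lowest mean of the rRNA control probe sets, at 4.39. These are single pairs of arrays, chosen by YER022w alone and not by *ACT1* or YER148w, with no test.

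**Figure D4:**
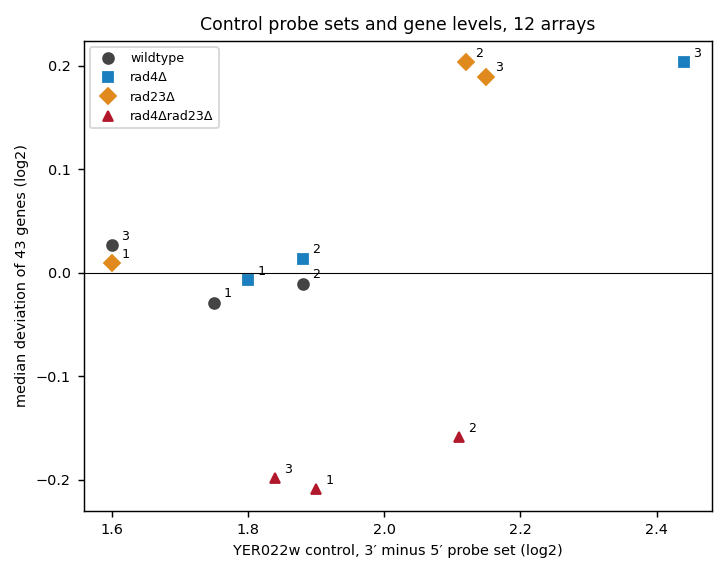
Median log2 deviation of the 43 members on each array (vertical axis) against the 3′ minus 5′ log2 value of the YER022w control probe sets (horizontal axis), with 1 point per array coloured by strain. The double mutant arrays lie at -0.21 to -0.16, with YER022w values from 1.84 to 2.11 that are within the range of the other strains.

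Other genes of the pathway, listed by function, were read in the same way. Of 48 other small-subunit factors, 37, 45 and 41 were below 0 against wildtype, *rad23Δ* and *rad4Δ*, with medians of -0.16, -0.28 and -0.24, and none was called. The helicase gene *DBP4* (annotated *HCA4*) was -0.61 from *rad23Δ* (limma adjusted p = 0.081, and 0.023 without the doubted arrays). Of 52 other large-subunit factors, 46, 52 and 50 were below 0, with medians of -0.18, -0.32 and -0.26. *IPI1*, for a subunit of the Rix1 complex, was lower than in wildtype (-0.71, limma adjusted p = 0.017) and *rad4Δ* (-0.63, 0.0344), and *RSA4*, for a factor removed by the Rea1 ATPase, was lower than in *rad4Δ* (-0.53, 0.0283). All 3 calls were lost without the doubted arrays (0.0761, 0.0554 and 0.0584). Other genes passed only then. *DBP4* passed against *rad4Δ* (-0.70, limma adjusted p = 0.0199) and in the interaction (0.0162) as well. *YTM1*, for a large-subunit factor that is also removed by Rea1, passed against *rad23Δ* (-0.40, 0.0481) and *rad4Δ* (-0.45, 0.0461) and in the interaction (-0.71, 0.0285), and *NOP13* in the interaction (-1.09, 0.0300). These lists thus had medians close to those of the members.

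The 17 genes for RNA polymerase I and its factors had medians of -0.16, -0.16 and -0.15 against wildtype, *rad23Δ* and *rad4Δ*, with 14, 15 and 14 below 0 and none called. For 15 regulators of growth and ribosome synthesis 9, 7 and 10 were below 0, the medians were -0.04, 0.01 and -0.06, and none was called. They include *DOT6*, which encodes the partner of Tod6. *DOT6* differed by -0.33 from wildtype (limma adjusted p = 0.343) and by 0.14 from *rad23Δ*.

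Stress genes moved the other way. Of 24 genes known to be induced through Msn2 and Msn4, 3, 0 and 1 were below 0 against wildtype, *rad23Δ* and *rad4Δ*. The medians were 0.53, 0.60 and 0.52. In the same order 5, 8 and 7 were called higher in the double mutant, and none was called lower. By limma 0.388%, 0.571% and 0.464% of all probe sets were called higher. Without the doubted arrays 6, 10 and 9 were called, where 0.485%, 0.809% and 0.83% of all probe sets were called higher. *HSP12*, for a small heat shock protein, was 2.64 above *rad23Δ* (limma adjusted p = 0.0209), and *NQM1*, for a transaldolase, was 1.23, 1.46 and 1.23 above the 3 strains. The mean level of the 24 genes ranged from 8.06 to 8.08 among double mutant arrays, from 7.47 to 7.56 in wildtype, from 7.38 to 7.49 in *rad4Δ* and from 7.29 to 7.34 in *rad23Δ*. The strain with the lowest ribosome biogenesis values was thus the one with the highest stress gene level, and the part of growth state at harvest in the members' values was not tested.

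**Figure D5:**
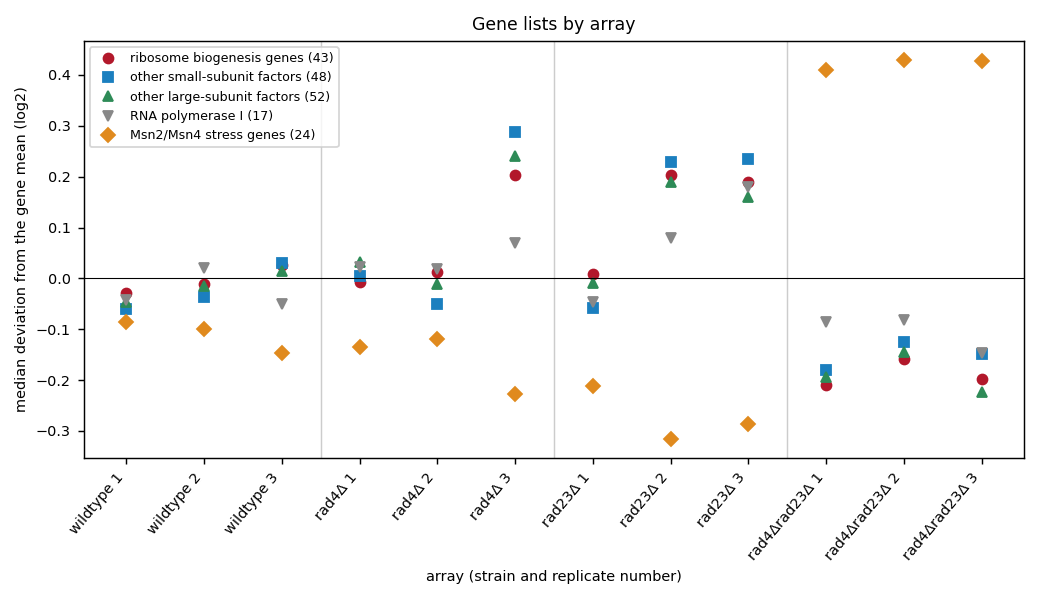
Median log2 deviation from the mean over 12 arrays (vertical axis) of the members and of the other gene lists on each array (horizontal axis, grouped by strain), with 1 symbol per list. The members, both other lists of assembly factors and the RNA polymerase I genes are lowest on the double mutant arrays, where the Msn2 and Msn4 stress genes are highest.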

How the data were processed

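Expression was measured on 12 Affymetrix yeast S98 arrays, 3 for each of 4 strains grouped by their labels. Per the labels, the authors scanned with Microarray Suite 5.0 and computed log2 values by RMA, a background correction, quantile normalization and probe set summary, in R 2.0.1 with Bioconductor 1.5 and its affy package, version 1.5.8. The deposited log2 values were used unchanged (array medians 5.83 to 5.90). Of 9335 probe sets, 60 controls were left out and 9275 tested. 6504 had 1 gene name, 328 several and 2443 none. In R 4.3.3, limma 3.58.1 fitted 1 mean per strain over all arrays. Adjusted p is limma's moderated test adjusted by Benjamini-Hochberg over those 9275 probe sets, with a threshold of 0.05, no fold minimum and 8 residual degrees of freedom. The number of arrays limits the precision. The fit was tested on simulated data, with differences larger than those of *NOG2* and *TOD6*. That test does not show how the fit performs at smaller differences.

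The members, lists and rules were chosen with earlier results of these data known. Full statistics were given for called members and the largest differences of each comparison. The levels of both regulators and of the member with the highest mean of each role were also given. Alternatives covered scaling, dim probe sets, strains in the fit, variance model, array weights, threshold, other probe sets, replicate block and leaving out arrays. Promoter sequences were not used here.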

Additional observations from a re-analysis of the deposited data

How the results depend on the processing

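The *NOG2* and *TOD6* differences and the member medians kept their direction under all 11 settings other than leaving out 1 array. Counts of called members moved more. With limma's default array weights, whose estimation stopped before it converged, they were 1 (*rad4Δ* against wildtype), 19 (*rad23Δ* against wildtype), 18, 28 and 11 (double mutant against wildtype, *rad23Δ* and *rad4Δ*) and 23 (interaction). Of all probe sets, 2.38%, 11%, 14.4%, 4.27%, 4.41% and 4.87% were called in the same direction as these members. With weights estimated gene by gene, chosen after the data were seen, they were 0, 12, 11, 30, 6 and 13. Fitting the compared strains alone gave 1 for the double mutant against wildtype, and gives no value for the interaction. Centring arrays on their medians gave 1 against *rad23Δ*, and the lowest probe set of a gene gave 1 against *rad23Δ* and 1 against *rad4Δ*. Without both doubted arrays the count was 1 against wildtype and 1 for the interaction, and the median 0.17 (*rad4Δ* against wildtype) and -0.49 (interaction). Leaving out each array gave 0 to 2 calls against wildtype, 0 to 3 against *rad23Δ*, 1 to 2 against *rad4Δ* and 0 otherwise, with medians of -0.21 to -0.14, -0.41 to -0.30, -0.29 to -0.19, 0.00 to 0.12 (*rad4Δ* against wildtype), 0.11 to 0.17 (*rad23Δ*) and -0.44 to -0.32 (interaction). The causes were not tested. Same-numbered arrays deviated together (r over 0.1) in 10 of 18 pairs, with r from -0.37 to 0.61. The labels do not say that a number marks a shared day, so the numbers were not taken as pairs in the main fit. With a replicate block the members called were 2 in each double mutant comparison and 0 otherwise, with *NOG2* at limma adjusted p = 0.0137, 0.042 and 0.0122 and *TOD6* at 0.0225, 0.0414 and 0.0112.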

Other observations

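The mean of the rRNA control probe sets was 4.39 on wildtype array 2, against 6.46 to 7.53 on the other 11 arrays. On that array 8 members had their highest level of all 12 arrays, namely *NOG2* (9.73), *NOP1* (9.59), *NSR1* (9.83), *CBF5* (10.05), *NOG1* (8.47), *IMP3* (8.25), *NMD3* (9.44, equal to *rad23Δ* array 3) and *SFP1* (6.50), and 5 their lowest (*SPB1* at 6.62, *UTP15*, *RRP5*, *RRP12* and *RPF1*).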
